A study of Glycine max with 24 samples.

Results

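The leaf-dominant genes were the 200 probe sets with the widest gap between leaves and roots among 32386 probe sets that carry 1 gene symbol, out of 75990 on the array. Each was ranked by a score on the log2 scale. The score is the lowest of the 4 leaf group means minus the highest of the 4 root group means. A member thus had to be far higher in every leaf group than in any root group. The 200 probe sets stand for 199 genes, because LOC100797696 is measured by 2 of them. Members whose symbols begin with WRKY, NAC, GST, HSP, MYB, BHLH or BZIP were to be left out, and 0 of the 200 had such a symbol. LOC100306119 has a glutathione S-transferase name among its RefSeq synonyms and stayed a member, because the rule goes by symbol. The members were thus chosen by the measured gap between leaves and roots, which is given below as a description, without a test.

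The arrays came from soybean (Glycine max) seedlings of a low-P-tolerant accession (CD, Chundou) and a low-P-sensitive accession (YH, Yunhefengwodou), grown in hydroponic boxes on half-strength Hoagland solution with 0.5 mmol/L phosphorus (normal P) or 0.005 mmol/L phosphorus (low P) for 10 days. Roots and leaves of both accessions at both P levels gave 8 groups with 3 biological replicates each, 24 arrays in all, and each accession stands for itself alone. A value is 1 normalized intensity per probe set and array, given here as log2. Differences within leaves are given with their SE from limma's linear model over all 24 arrays, with p values adjusted over all probe sets, and a probe set is called when its adjusted p is under 0.05 and it differs at least 2-fold. The tissue labels were checked on marker genes: RBCS1, which encodes a small subunit of rubisco, had group means of 4.82 to 6.15 in leaves and 0.72 to 1.15 in roots, and CAB3, which encodes a chlorophyll a/b-binding protein, had 9.05 to 10.16 in leaves and 5.58 to 6.50 in roots. Of 33 probe sets listed as root markers, 13 had every root group mean above every leaf group mean, among them the high-affinity nitrate transporter NRT2 with 6.90 to 8.41 on the root arrays and 2.63 to 4.44 on the leaf arrays. For 16 the groups overlapped, and 4 lay higher in all leaf groups (NIP1-8, PHT1-6, PHT1-10 and, by 0.01, NIP3-1). The summed intensity of the 33 was 547 to 973 on the leaf arrays and 1561 to 2203 on the root arrays.

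A leaf differs from a root above all in its chloroplasts. Pigment-protein complexes in the thylakoid membrane capture light and drive electron transport, an ATP synthase uses the resulting proton gradient, and rubisco and the other enzymes of the Calvin cycle fix carbon dioxide with the ATP and reductant so made. Phosphate enters through ATP synthesis and the Calvin cycle, and the chloroplast exports much of its fixed carbon as triose phosphate in exchange for phosphate.

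Scores of the members ran from 3.78 to 8.33 with a median of 4.57. They are not given as folds, because many root levels lay below the median of all probe sets (2.83 to 2.91 across arrays) and no detection calls were used. The lowest leaf mean of a member was between 5.23 and 10.95 (median 7.23) and the highest root mean between 0.93 and 5.62 (median 2.44). Even the lowest single leaf array lay above the highest single root array for every member, by 1.67 to 7.45. The limit did not fall in a gap. The last 3 members were the aldehyde dehydrogenase gene ALDH3J2 (score 3.7832), LOC100500540 (3.779) and LOC100793646 (3.7784), and the first 3 probe sets outside were LOC100802392 (3.7776), LOC100779417 (3.7773) and LOC100793119 (3.7684). Only 18 members carry a name in place of a LOC number, a further 4 have a name among their RefSeq synonyms, and 178 are known here by number alone, so most of the set cannot be given a function.

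**Figure D1:**
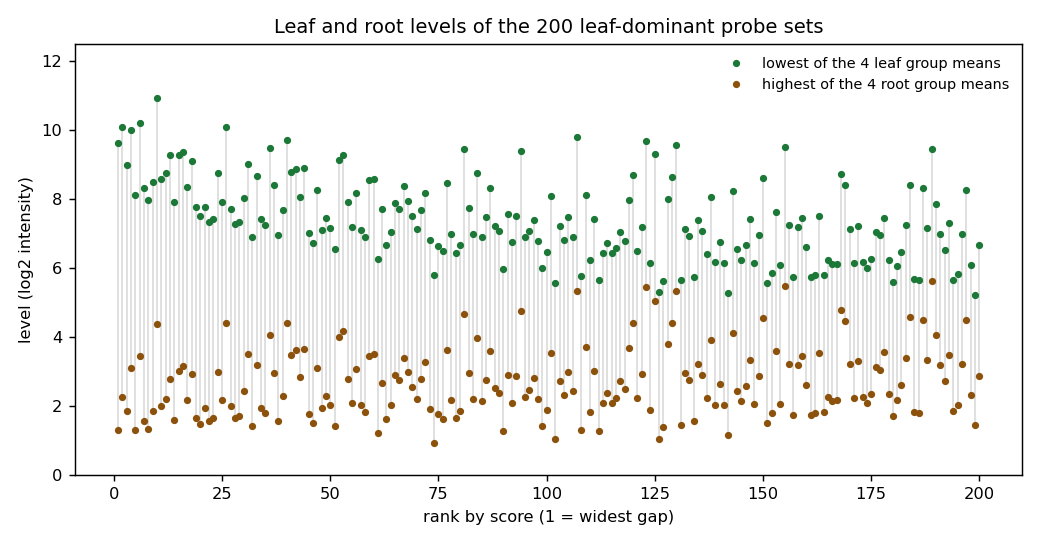
Level in log2 intensity (y axis) of the 200 leaf-dominant probe sets in order of score (x axis), with the lowest of the 4 leaf group means in green and the highest of the 4 root group means in brown, joined by a line. The gap narrows from 8.33 to 3.78 along the ranks, while leaf levels at all ranks spread between 5.23 and 10.95.

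The widest gap belonged to LOC100306307. On the CD leaf arrays it measured 10.48, 10.57 and 10.69 in normal P and 10.70, 10.55 and 10.54 in low P, and on the YH leaf arrays 10.23, 8.89 and 9.75 in normal P and 10.26, 10.39 and 10.34 in low P. Its 4 root means were 1.0 to 1.30. The CD leaves were above the YH leaves on every array in normal P, by 0.95 ± 0.25 (SE, n = 3 and 3), which passed the test at an adjusted p of 0.00899 but stayed under 2-fold.

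GER8, which encodes a germin-like protein of the cupin family, had the second widest gap and the narrowest range of leaf group means of all members. Its leaf arrays measured 10.15, 10.05 and 10.34 (CD, normal P), 10.13, 10.18 and 10.18 (CD, low P), 10.26, 9.88 and 10.16 (YH, normal P) and 10.09, 10.26 and 10.08 (YH, low P). The 4 leaf means of GER8 spanned only 0.0776, against 1.65 to 2.26 as its root means. The fourth gene in the order, LOC100816355, has the RefSeq synonym GmCUPIN16.1 and also belongs to the cupins. Its leaf arrays lay between 10.23 and 10.53 in CD and between 9.33 and 10.48 in YH.

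Next in order of score were LOC100799817 (6.80), both probe sets of LOC100797696 (6.76 and 6.75), LOC100806925 (6.64), LOC100813414 (6.63) and LOC547605 (6.58). LOC547605 was the brightest of these in leaves, with 10.90 to 11.28 over the 12 leaf arrays. The 2 probe sets of LOC100797696 differed in their accession pattern: YH arrays were all above CD arrays for the first at both P levels, and the groups overlapped for the second, so the gene's accession difference depends on the probe set.

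Members carrying names fall outside photosynthesis for the larger part. FLS1 encodes flavonol synthase and F3H flavanone 3-hydroxylase, neighbouring steps of flavonol synthesis. FLS1 measured 6.25, 7.65 and 8.09 in CD leaves and 8.07, 7.04 and 7.43 in YH leaves in normal P, and 7.92, 7.96 and 7.82 against 8.21, 8.00 and 8.07 in low P. F3H measured 5.38, 6.55 and 6.90 against 7.34, 4.79 and 6.87 in normal P, and 6.83, 6.82 and 6.42 against 7.33, 7.33 and 7.03 in low P. For both genes the normal P arrays of each accession scattered over more than 1 log2 unit while the low P arrays lay close together, and neither gene passed any within-leaf test.

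VSPA encodes a vegetative storage protein, a vacuolar protein that soybean leaves use as a nitrogen reserve. Its leaf arrays measured 9.68, 10.81 and 10.83 in CD in normal P, 10.75, 10.78 and 10.59 in CD in low P, 10.12, 8.67 and 9.57 in YH in normal P and 10.40, 10.42 and 10.42 in YH in low P. In YH leaves the low P values exceeded the normal P values on every array, by 0.96 ± 0.37 (SE), at an adjusted p of 0.460. The related VSPB (LOC547820) scored 0.69 and is no member. Its leaf means were 7.67 and 8.22 in CD and 4.98 and 7.03 in YH, in normal and low P, and its root means 3.23 to 4.29.

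GASA3 and GASA5 belong to the gibberellin-regulated GASA peptides, and SBPRP encodes a proline-rich cell wall protein. GASA3 measured 8.93, 6.65 and 8.90 in YH leaves in normal P against 8.85 to 9.46 on all other leaf arrays, so that 1 array set its low YH mean. GASA5 ranged from 8.94 to 10.15 and SBPRP from 9.37 to 10.60 over the 12 leaf arrays. IQD13, a calmodulin-binding IQ-domain gene, was above YH on all 3 CD arrays at both P levels, by 0.96 ± 0.33 in normal P (adjusted p = 0.0485, under 2-fold) and 0.53 ± 0.33 in low P (adjusted p = 0.318).

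Of the remaining names, MIPS4, for myo-inositol-1-phosphate synthase, had the lowest values of low P minus normal P among all members in both accessions, -0.91 ± 0.39 in CD and -0.86 ± 0.39 in YH, with adjusted p over 0.6 in both. Its low P arrays measured 6.61, 5.70 and 4.43 in CD and 7.09, 5.48 and 6.0 in YH, overlapping the normal P arrays. FBA, an aldolase gene, measured 7.94, 6.18 and 6.62 in CD leaves in normal P and 6.41 to 6.56 in low P, and passed no test. SHOOT1 lay between 6.93 and 8.11 in leaves, and the aldehyde dehydrogenase gene ALDH11A2 between 5.45 and 7.33.

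Photosynthesis genes were followed through 7 lists matched on symbols and synonyms: light harvesting, photosystem II, photosystem I, electron transport and ATP synthase, carbon fixation, photorespiration, and chlorophyll synthesis. These lists held 33 probe sets, of which 32 scored above 0, with a median score of 2.03 against -0.54 over all ranked probe sets. Only 5 of the 33 were members: the Cab-6 gene LOC100793702 (rank 51), a mitochondrial-type serine hydroxymethyltransferase of photorespiration, LOC100499634 (77), FBP for fructose-bisphosphatase (91), RCAALPHA for the alpha form of rubisco activase (130) and ATPC for the gamma subunit of the chloroplast ATP synthase (143). All 5 were nuclear genes, and none of the chloroplast-encoded psb and pet probe sets of the lists was a member. The lists rest on names, and unnamed members may belong to the same processes.

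RBCS1 stood just outside the set at rank 227, with its lowest leaf mean at 4.82. Many of the other listed genes had a higher signal in roots than most members. The highest root mean was 4.81 for CHLI and 5.66 for CHLH, the magnesium chelatase subunit genes (ranks 316 and 683). It was 6.50 for CAB3 (619) and 8.73 for PSAD, for a photosystem I subunit (1059). The upper quartile of this value over members was 3.23. PSAD had leaf means of 10.54 to 10.66 and root means of 7.69 to 8.73. The chloroplast-encoded psbA, for the D1 protein of photosystem II, had leaf means of 11.56 to 11.65 and root means of 9.42 to 10.47. The cytosolic-type SHMT, the single listed probe set under 0, had root means of 8.13 to 9.40 and leaf means of 8.14 to 8.57.

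The largest accession differences among the listed photosynthesis genes were in those of rubisco activase, the ATP-dependent chaperone that frees rubisco from inhibitory sugar phosphates. All 5 listed rubisco activase genes were lower in CD leaves than in YH leaves at an adjusted p under 0.05 at both P levels, and 4 of the 5 by more than 2-fold. With 3 arrays a group, each CD array lay below each YH array for all 5 genes at both P levels. Over all probe sets this held for 15.6% in normal P and 13.6% in low P, and 2.72% and 2.16% were called lower in CD.

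RCA03 differed most. It measured 2.52, 2.62 and 3.07 in CD leaves and 6.42, 6.38 and 6.65 in YH leaves in normal P, and 2.44, 2.80 and 2.64 against 6.40, 6.13 and 6.31 in low P. The CD leaves were thus near the root means of 1.88 to 2.30 and near the median of all probe sets, 2.83 to 2.91 across arrays, so their level may not be above background and no fold is given. The difference, CD minus YH, was -3.74 ± 0.17 (SE) in normal P (adjusted p = 4.50e-12) and -3.65 ± 0.17 in low P (adjusted p = 8.67e-12).

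RCABETA, the beta form, measured 7.29, 5.67 and 5.98 in CD leaves against 9.41, 8.78 and 9.24 in YH leaves in normal P, and 6.68, 6.86 and 6.27 against 9.38, 9.07 and 8.93 in low P. CD minus YH was -2.83 ± 0.28 (adjusted p = 2.63e-07) and -2.52 ± 0.28 (adjusted p = 1.40e-06). On every YH leaf array it lay above the upper quartile of the members, and its CD level kept it at rank 334.

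RCA14 gave -1.82 ± 0.20 in normal P (adjusted p = 1.35e-06) and -1.63 ± 0.20 in low P (adjusted p = 6.12e-06), from CD arrays of 7.54 to 8.20 and YH arrays of 9.39 to 9.77. RCA11 gave -1.67 ± 0.35 (adjusted p = 0.00164) and -2.37 ± 0.35 (adjusted p = 5.48e-05), from CD arrays of 5.06 to 6.48 and YH arrays of 7.02 to 7.97. These calls for RCA03, RCABETA, RCA14 and RCA11 were kept when any 1 array of the compared groups was left out. Among the rubisco activase genes only RCAALPHA was a member: it measured 9.44, 9.52 and 9.71 against 10.42, 10.57 and 10.44 in normal P, and 9.85, 9.90 and 9.72 against 10.47, 10.40 and 10.52 in low P. Its differences, -0.92 ± 0.20 (adjusted p = 0.00196) and -0.64 ± 0.20 (adjusted p = 0.0299), were under 2-fold.

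**Figure D2:**
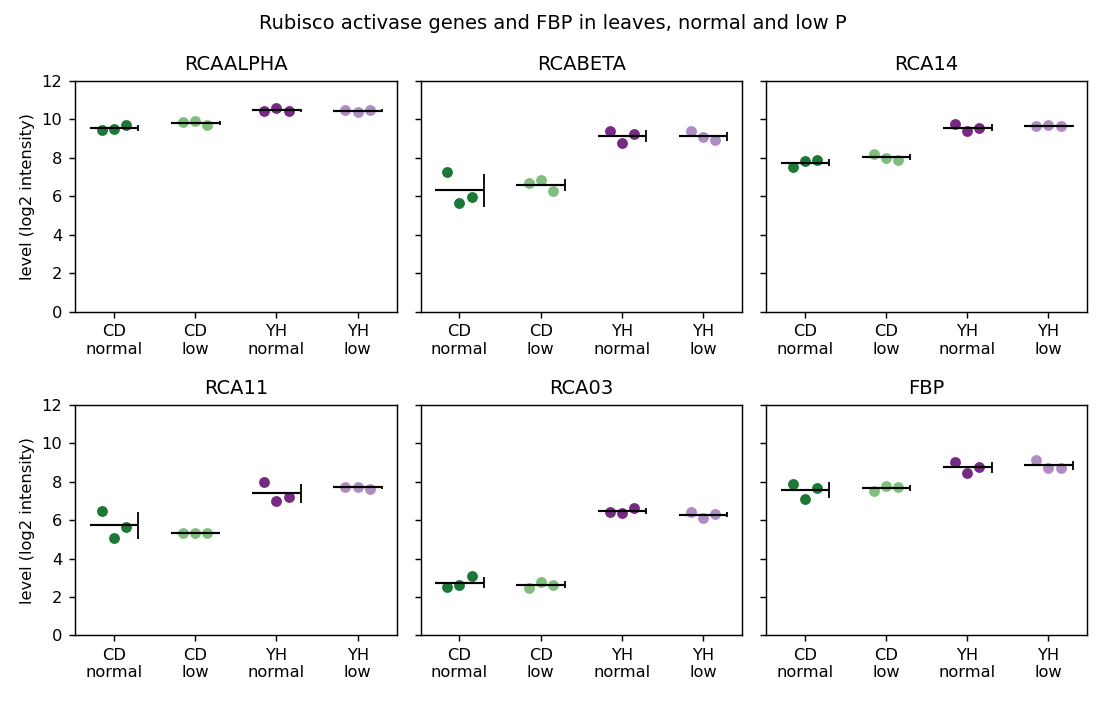
Level in log2 intensity (y axis) of the 5 rubisco activase genes and FBP in the leaves of CD and YH in normal and low P (x axis). Each point is 1 array, horizontal lines are means of 3 and vertical lines show 1 SD on either side; in all 6 panels every CD array sits below every YH array of the same P level, with the widest gap, 3.74, in RCA03 in normal P.

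Soybean holds many duplicated genes, and copies of rubisco activase may share probes, so the level of a single copy is uncertain. A lower signal in 1 accession also cannot be told apart from a poorer match of its alleles to the probes, here or in any other comparison of CD with YH.

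FBP, whose enzyme removes a phosphate from fructose 1,6-bisphosphate, was the only listed member called between the accessions in leaves. It measured 7.90, 7.12 and 7.66 in CD leaves against 9.04, 8.47 and 8.76 in YH leaves in normal P, and 7.51, 7.77 and 7.72 against 9.12, 8.73 and 8.69 in low P. CD minus YH was -1.19 ± 0.22 (adjusted p = 0.000537) and -1.18 ± 0.22 (adjusted p = 0.000717). Without CD normal P replicate 2 the normal P value was -0.97 at an adjusted p of 0.0062, under 2-fold.

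ATPC and LOC100499634 lay lower in CD by smaller amounts. ATPC differed by -0.54 ± 0.17 in normal P (adjusted p = 0.028) and -0.43 ± 0.17 in low P (adjusted p = 0.092), and LOC100499634 by -0.38 ± 0.21 and -0.44 ± 0.21, neither past the test. For the Cab-6 gene the arrays of both accessions overlapped at both P levels, with 6.19 to 7.0 over the 12 leaf arrays.

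Not every photosynthesis gene was lower in CD. RBCS1 was higher in CD by 1.12 ± 0.39 in normal P (adjusted p = 0.0495) and 1.34 ± 0.39 in low P (adjusted p = 0.0215). Its call depended on single arrays and on scaling: after quantile normalization its adjusted p in normal P was 0.0681, and the call was kept in only 1 of 6 normal P fits and 3 of 6 low P fits that left out 1 array, and YH leaves in low P measured 5.91, 5.12 and 3.43. CAB3 was higher in CD by 0.98 ± 0.16 (adjusted p = 0.000126) and 0.59 ± 0.16 (adjusted p = 0.012), under 2-fold at both P levels. ELIP, an early light-induced protein gene, was lower in CD leaves in low P, at 8.10, 8.07 and 8.18 against 9.60, 9.67 and 9.30, by -1.40 ± 0.21 (adjusted p = 8.65e-05), while its normal P arrays overlapped.

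Over the 33 listed probe sets, 1 was higher and 5 lower in CD leaves in normal P (3.03% and 15.2%), and 1 was higher and 6 lower in low P (3.03% and 18.2%). Among all probe sets 5.50% were higher and 2.72% lower in normal P, and 4.76% and 2.16% in low P. The lower calls were FBP and the rubisco activase genes RCA03, RCABETA, RCA14 and RCA11 at both P levels, with ELIP added in low P. Most of them thus came from 1 gene family. Some genes, such as psbK and petG, entered the lists through several probe sets. The median CD minus YH difference of the lists was -0.03 at both P levels. Under low P none of the 33 was called in CD or in YH leaves: 1 and 3 of them had an unadjusted p under 0.05 (3.03% and 9.09%, beside 2.57% and 7.71% of all probe sets).

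Among the members themselves, some were called between CD and YH leaves at both P levels, and the direction of the calls leaned to YH in low P. In normal P 10 members were called higher and 10 lower in CD (5% each way), beside 5.50% higher and 2.72% lower over all probe sets. In low P 4 were higher (2%) and 20 lower (10.0%), beside 4.76% and 2.16%. After quantile normalization the normal P calls were 8 higher and 17 lower, and the low P calls 3 and 22. In normal P a fit of the 12 leaf arrays alone called 6 higher and 7 lower, and a fit of the 6 arrays 5 and 5. The median difference over members was -0.09 in normal P and -0.24 in low P, beside -0.06 and -0.07 over all probe sets. Because the score uses the lowest leaf mean, a gene with a large drop in any leaf group is less likely to be a member. RCABETA, low in both CD groups, is an example. Differences within the set are bounded by the choice of this score.

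Counting arrays rather than calls, all 3 CD arrays lay above all 3 YH arrays for 21 members and below for 40 in normal P, and above for 24 and below for 87 in low P. Over all probe sets these shares were 15.5% and 15.6% in normal P and 15.6% and 13.6% in low P. The count of 87 of 200 lay well above its background share, and the others lay nearer to theirs.

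The 4 members higher in CD at both P levels were CYP76O2, LOC100807289, LOC100786014 and LOC100812344. They were 40.0% of those higher in normal P and 100% of those higher in low P. CYP76O2, a cytochrome P450 monooxygenase gene, measured 9.02, 9.90 and 9.04 in CD leaves against 7.22, 6.15 and 7.02 in YH leaves in normal P, and 9.95, 9.17 and 9.42 against 7.28, 8.03 and 6.58 in low P. The groups did not overlap, and the difference was 2.52 ± 0.32 (adjusted p = 8.38e-06, 5.75-fold) and 2.22 ± 0.32 (adjusted p = 4.65e-05, 4.65-fold).

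LOC100807289 had the widest range of leaf means in the set, 3.22. It measured 8.13, 9.63 and 9.57 against 6.95, 5.17 and 7.27 in normal P, and 9.70, 9.71 and 9.64 against 7.61, 7.82 and 7.10 in low P. The differences of 2.65 ± 0.41 (adjusted p = 8.41e-05) and 2.17 ± 0.41 (adjusted p = 0.000768) came with no overlap of arrays. LOC100786014 differed by 1.96 ± 0.36 and 1.58 ± 0.36, also without overlap.

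LOC100812344 differed by 1.70 ± 0.47 and 1.56 ± 0.47, and was less even: CD replicate 1 in normal P, at 6.03, lay below 2 of the YH arrays (6.57, 4.14 and 6.23). Its normal P call was lost in 3 of 6 fits that left out 1 array, with 0.94 (adjusted p = 0.111) without YH replicate 2, and the low P call held in only 1 of 6. LOC100812344 and LOC100813414, the ninth by score, lie with 1 protein-coding gene between them in the order of the RefSeq gene table. In all, 9 pairs among the 197 placed members had at most 9 genes between them, 1 of them, LOC100807723 and LOC100500372, being direct neighbours.

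The other 6 members called higher in CD in normal P were LOC100804209 (1.68), LOC100793805 (1.58), LOC100802921 (1.53), LOC100526941 (1.39), LOC100791371 (1.09) and LOC100813910 (1.08). In low P none of them was called, with differences between 0.28 and 0.98. All 6 had their lowest leaf value on YH normal P replicate 2, at 6.23 for LOC100793805, 5.16 for LOC100804209, 4.63 for LOC100802921, 5.38 for LOC100526941, 4.95 for LOC100791371 and 7.27 for LOC100813910. Without that array LOC100526941 differed by 0.76 (adjusted p = 0.0206), LOC100791371 by 0.45 (adjusted p = 0.318), LOC100802921 by 0.98 (adjusted p = 0.112) and LOC100813910 by 0.84 (adjusted p = 0.0636), and none of these 4 was called, while LOC100804209 and LOC100793805 kept their calls. The test of the difference between the normal and the low P gaps called 0 members.

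Of the members lower in CD, 9 were called at both P levels, which is 90.0% of those lower in normal P and 45.0% of those lower in low P. Beside FBP they were LOC100306108, LOC100794343, LOC100811518, LOC100776071, LOC100775844, LOC100814341, LOC100802696 and LOC100799793. LOC100306108 had the largest value in normal P: CD arrays measured 6.88, 6.49 and 6.64 and YH arrays 8.27, 8.60 and 8.33, a difference of -1.73 ± 0.17 (adjusted p = 3.05e-07). In low P they measured 6.70, 6.68 and 6.85 against 8.26, 7.92 and 7.68, a difference of -1.21 ± 0.17 (adjusted p = 3.42e-05).

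LOC100794343 had the largest value in low P, with CD arrays at 6.02, 5.64 and 5.21 and YH arrays at 7.63, 7.16 and 7.19, a difference of -1.70 ± 0.27 (adjusted p = 0.000151), after -1.62 ± 0.27 in normal P. LOC100811518 and LOC100776071 gave -1.59 ± 0.20 and -1.48 ± 0.20 in normal P and -1.10 and -1.02 in low P. The others of the 9 lay between -1.06 and -1.20 in normal P and between -1.18 and -1.46 in low P. The tenth in normal P, LOC100527195, differed by -1.03, a call kept in 2 of 6 fits that left out 1 array. Among the 9, only LOC100306108 and LOC100794343 kept both calls whichever array was left out. LOC100802696 kept its normal P call in 2 of 6 such fits. LOC100799793 kept its calls in 4 of 6 at both P levels, and LOC100811518 its low P call in 4 of 6.

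The 11 members called lower in CD in low P but not in normal P included LOC100790993 (-1.49), LOC100815887 (-1.49), LOC100779226 (-1.33), LOC100789683 (-1.27), LOC100305993 (-1.27) and P42-1 (-1.03). The call of P42-1 was kept in 4 of 6 fits that left out 1 array. LOC100789683, the third by score, measured 9.16, 8.79 and 9.04 in CD leaves against 10.31, 10.15 and 10.35 in YH leaves in low P (adjusted p = 2.75e-05), and 9.19, 9.08 and 9.25 against 10.03, 9.91 and 10.03 in normal P, where its difference of -0.82 passed the test (adjusted p = 0.00212) but not 2-fold. LOC100806925, the eighth by score, measured 7.55, 8.09 and 8.45 against 9.20, 9.28 and 8.99 in low P (-1.13 ± 0.32, adjusted p = 0.0203), a call lost without CD low P replicate 1 (-0.89, adjusted p = 0.128) or YH low P replicate 2 (-1.07, adjusted p = 0.0625).

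**Figure D3:**
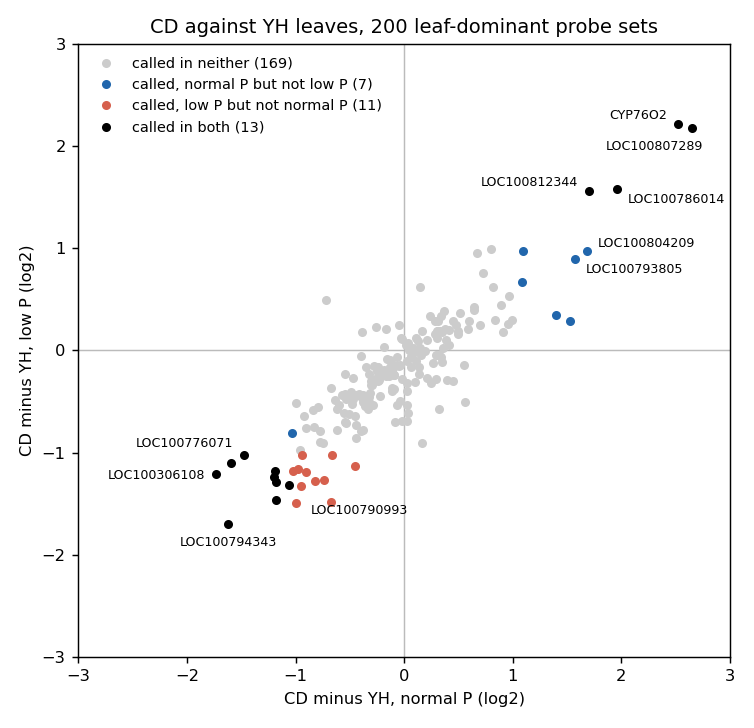
Difference of CD minus YH leaf means (log2) in normal P (x axis) and in low P (y axis), 1 point for each of the 200 leaf-dominant probe sets, coloured by the P level at which it was called. The 2 axes rest on separate arrays; 13 points were called at both P levels, 4 of them at the upper right (CYP76O2 at 2.52 and 2.22) and 9 at the lower left.

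Of the calls, 9 of 20 in normal P and 15 of 24 in low P were kept whichever array of the compared groups was left out. The count of members lower in CD in normal P was 6 without CD replicate 2, 18 without CD replicate 1 and 23 without YH replicate 2, and the count higher was 16 without YH replicate 1 and 5 without YH replicate 2. In low P the count higher was 8 without YH replicate 1, and the count lower stayed between 14 and 23.

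Low P itself moved few members past the test. In CD leaves 0 members were called higher and 0 lower, beside 0.00395% and 0% of all probe sets, and 13 members had an unadjusted p under 0.05 (6.50%, beside 2.57% of all probe sets). In YH leaves 1 was called higher and 0 lower, beside 0.0211% and 0.0855%, and 39 had an unadjusted p under 0.05 (19.5%, beside 7.71%). The difference of the responses, CD minus YH, called 0 members in either direction, beside 0.0211% and 0.00263% of all probe sets, and 6 had an unadjusted p under 0.05 (3.0%, beside 3.78%).

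The one call was LOC100793805. In YH leaves it measured 7.70, 6.23 and 7.50 in normal P and 8.56, 9.19 and 8.70 in low P, which is 1.68 ± 0.28 higher in low P (adjusted p = 0.014, 3.20-fold). In CD leaves it measured 8.69, 8.38 and 9.09 in normal P and 9.59, 9.67 and 9.89 in low P, and the difference of 1.0 ± 0.28 was the highest of all members there but did not pass the test. In both accessions low P and normal P arrays did not overlap. Without YH low P replicate 2 the YH value was 1.49 at an adjusted p of 0.124. Fits of the 12 leaf arrays alone, of the 6 YH leaf arrays alone or with a replicate block called 0 members.

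Most members lay slightly higher in low P. The difference was above 0 for 150 members in CD leaves and for 164 in YH leaves, with medians of 0.09 and 0.26, beside -0.01 and -0.00 over all probe sets. The 3 low P arrays exceeded the 3 normal P arrays without overlap for 24 members in CD and 20 in YH, beside 3.85% and 3.26% of all probe sets, and lay below them for 0 and 3, beside 3.51% and 3.82%. LOC100799817, the fifth by score, was an example in both accessions: 8.86, 8.90 and 8.92 in low P against 8.30, 7.47 and 8.55 in normal P in CD, and 9.48, 8.88 and 8.81 against 8.47, 8.31 and 8.27 in YH, with differences of 0.78 and 0.70 (SE 0.21) that did not pass the test.

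These medians changed most when replicate 2 of CD or of YH leaves in normal P was left out. The median over members was 7.67, 7.35 and 7.67 on the CD normal P leaf arrays, 7.65, 7.73 and 7.69 in CD in low P, 7.91, 7.22 and 7.62 in YH in normal P and 8.02, 7.94 and 7.68 in YH in low P. Replicate 2 was the lowest array of both normal P leaf groups, being the lowest of its 3 arrays for 139 members in CD and 157 in YH, and in YH 42 members lay there at least 1 log2 unit below both other arrays. Without it the median response was -0.02 in CD and 0.04 in YH, and without YH low P replicate 1 the YH median was 0.14.

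On the same arrays the median level of the 33 root markers was also the lowest of its group. It was 2.53 against 2.69 and 2.59 in CD and 2.45 against 2.56 and 2.54 in YH. Only 13 of the 33 lay higher in every root group than in every leaf group, so this median may not follow root tissue. Of the 13, PRX4 measured 4.48 on CD normal P replicate 2 against 3.45 and 3.74. On YH normal P replicate 2 PRX4 measured 3.45 against 3.52 and 3.55. NRT2, also of the 13, measured 3.09 against 2.69 and 3.10 in CD, and 2.83 against 2.99 and 4.44 in YH. The summed intensity of the 33 is dominated by a few bright probe sets. It was 904 on CD normal P replicate 2, against 561 and 694 on the other arrays of the group. On YH normal P replicate 2 it was 563, against 680 and 547. The part of tissue make-up in these low values was not tested. In whole leaves, fewer cells of a type and less RNA per cell cannot be told apart. CD normal P replicate 1 stood out for a smaller number of members, with 18 at least 1 log2 unit below both other arrays, among them ALDH3J2 at 4.25 against 7.41 and 6.60.

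**Figure D4:**
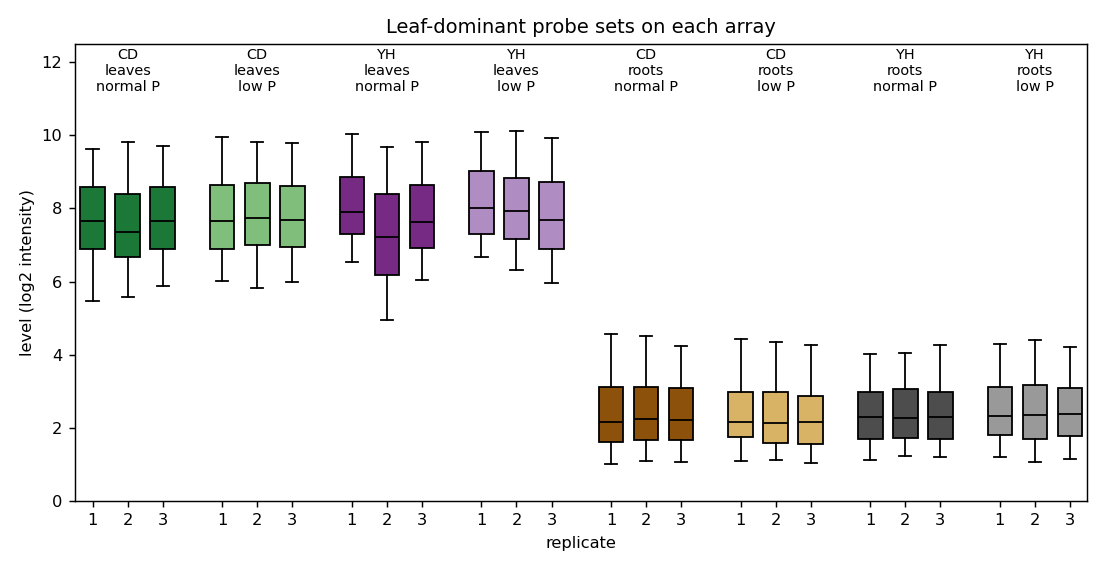
Level in log2 intensity (y axis) of the 200 leaf-dominant probe sets on each of the 24 arrays (x axis, replicate number within group). Boxes span the quartiles with the median as a line and whiskers reach the 5th and 95th percentiles; leaf medians run from 7.22 to 8.02 and root medians from 2.14 to 2.38, and replicate 2 of both normal P leaf groups has the lowest median of its group.

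**Figure D5:**
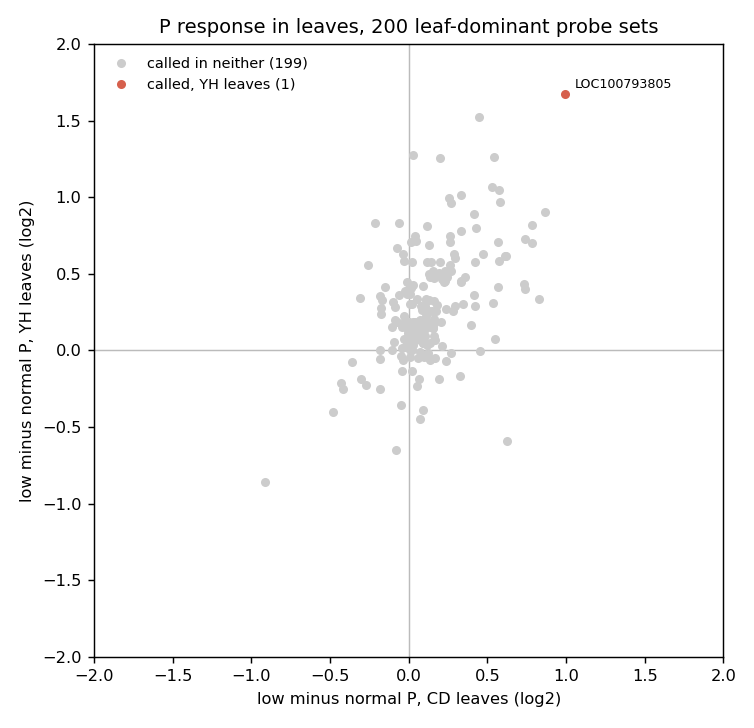
Difference of low P minus normal P (log2) in CD leaves (x axis) and YH leaves (y axis), 1 point for each of the 200 leaf-dominant probe sets. LOC100793805, at 1.0 and 1.68, is the one called point, and the medians are 0.09 and 0.26.

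Counted by group, the highest leaf mean of a member was in YH low P for 107 members, CD low P for 53, YH normal P for 31 and CD normal P for 9. The lowest was in YH normal P for 80, CD normal P for 79, CD low P for 34 and YH low P for 7. The 4 leaf means of 151 members spanned less than 1, those of 49 members 1 or more and those of 6 members 2 or more, beside a median SD within leaf groups of 0.33.

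In roots every member lay far below its own leaf levels by its choice. RCAALPHA was the one member called for the P response in CD roots. It fell from 3.92 in normal P to 2.85 in low P (-1.07 ± 0.20, adjusted p = 0.00824), beside 0.0947% of all probe sets lower. Its CD low P root arrays measured 3.31, 2.49 and 2.76, beside array medians over all probe sets of 2.83, 2.91 and 2.90. That level may not be above background. For the P response in CD roots, 21 members had an unadjusted p under 0.05 (10.5%, beside 4.03% of all probe sets). In YH roots 0 members were called (0% of all probe sets were higher and 0.00132% lower), and 10 had an unadjusted p under 0.05 (5.0%, beside 1.54%). RCAALPHA was also lower in CD than in YH roots, by -1.12 ± 0.20 in normal P (adjusted p = 0.0008) and -2.48 ± 0.20 in low P (adjusted p = 2.89e-08). Besides RCAALPHA, 7 members were higher in CD roots in normal P (1.67% of all probe sets were higher and 1.34% lower), led by LOC100784090 (1.98) and LOC100806792 (1.93), and 3 were higher and 4 more lower in low P (2.24% and 1.15%).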

How the data were processed

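RNA from leaves and roots was hybridized to Affymetrix Soybean Gene 1.1 ST arrays. The deposited values are linear intensities already normalized by the authors (with RMA by the paper's methods and with MAS5, version not given, by the submitters' processing notes). No detection calls were used. Values were taken to log2 without a filter. Symbols came from the platform annotation, synonyms and gene order from the RefSeq table (Glycine_max_v4.0), where all 200 members matched. The array follows another assembly, so no coordinates are given, and sequences were not analysed here.

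limma 3.58.1 in R 4.3.3 was fitted to the 24 arrays with 1 mean per group (16 residual and 4.22 prior degrees of freedom) and tested on simulated data. Every p value is limma's, adjusted by Benjamini-Hochberg over 75990 probe sets within a comparison, and a call needs an adjusted p under 0.05 and at least 2-fold. SAM, the methods' test, was not run because it permutes labels. The number of arrays, 3 a group, limits the precision. Alternatives were other thresholds and scores, a replicate block, fits of leaf arrays or of 6 arrays alone, median centring, quantile normalization, a fit without the dim probe sets (50660 kept) and leaving out each array.

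Named are the 10 highest scores, 3 probe sets on either side of the limit, up to 10 called members per direction and comparison, listed genes, and members that carry names. Members and lists were chosen with earlier results of these data known, and the arrays examined singly after their values were seen.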

Additional observations from a re-analysis of the deposited data

How the results depend on the processing

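Membership held for 168 of 200 probe sets when ranked by the difference of the leaf and root means, 191 with linear means, 195 after quantile normalization, 200 with the families removed first, and 183 to 199 without 1 array. For CD against YH in normal P, members lower in CD numbered 17 after quantile normalization, 5 in a fit of the 6 arrays and 32 without the fold threshold (10 as reported). Members higher numbered 6 with the 12 leaf arrays alone, 5 in a fit of the 6 arrays, 4 with the replicate block, 19 without the fold threshold and 5 without replicate 2 of both normal P leaf groups, a choice made after seeing the data. In low P, without the fold threshold, 10 were higher and 34 lower. For the YH response, 0 members were higher with the 12 leaf arrays alone, in a fit of the 6 arrays, with the replicate block or at an adjusted p under 0.01. Leaving out 1 array gave 0 to 8 for the YH response, 5 to 16 higher and 6 to 23 lower in normal P, and 3 to 8 higher and 14 to 23 lower in low P. The cause of these changes was not tested. Correlations of same-numbered deviations ran from -0.30 to 0.49, so they did not settle whether the labels' replicate numbers pair the leaf samples. The block moved no other count of calls by over 1.5 times.

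The median over members turned sign in the CD response without normal P replicate 2 (-0.0208, also without both replicates 2), in CD against YH in normal P without CD replicate 2 (0.008) or YH replicate 1 (0.0715), and in the difference of the responses without YH normal P replicate 2 (0.051). Ranges were -0.02 to 0.15 for the CD response, 0.04 to 0.39 for the YH response, -0.31 to 0.07 and -0.32 to -0.16 for CD against YH in normal and low P, and -0.31 to 0.05 for the difference of the responses. The CD against YH median in low P therefore kept its sign under every array left out.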
